A study of Homo sapiens with 15 samples.

Results

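The comparison described here set A549 cells given a mismatch polyamide for 48 hours and dexamethasone for 6 hours against A549 cells given dexamethasone for 6 hours alone. Its members were chosen by the array titles and numbered 6 of the 15 arrays of the series, 3 with the mismatch polyamide and 3 without. A549 is a human lung adenocarcinoma line of epithelial type, grown here in F12K medium with charcoal-treated serum. The direct analog of the tested compound, a match polyamide given for 48 hours with dexamethasone for 6 hours (3 arrays), was used to show where the polyamides differ. Mifepristone for 48 hours with dexamethasone for 6 hours (3 arrays) and non-treated cells (3 arrays) are quoted as levels where they help in reading a value. The labels give neither doses nor structures of the polyamides. The dexamethasone label names no compound or vehicle for 48 hours, so that the mismatch polyamide and 48 hours of handling cannot be told apart within these 2 groups. Whether replicate arrays stand for separate cultures is not labelled, and p-values cover only the spread among arrays, possibly a technical one.

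Dexamethasone is a synthetic glucocorticoid. It enters the cell and activates the glucocorticoid receptor, which moves to the nucleus, binds glucocorticoid response elements and raises some transcripts while lowering others, many of them inflammatory. Pyrrole-imidazole polyamides are synthetic ligands that lie in the minor groove of DNA and read its base pairs by their ring pairing. A match compound is designed to read a chosen site, here one of the glucocorticoid response element by the title of the series. A mismatch compound has the same kind of backbone with a changed reading of the bases, and serves as a control ligand that still binds DNA at other sites. The question was how transcripts of dexamethasone-treated cells differ when the control ligand has been given.

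RNA was measured on Affymetrix arrays as 1 signal per probe set. The 2% trimmed mean of an array ran from 91.3 to 136.6 with the mismatch polyamide and from 91.4 to 107.3 with dexamethasone alone, and signals were quantile normalized before any comparison. On the first principal component, which held 39.4% of the variance over all 15 arrays, the mismatch arrays scored 31.9 to 35.6 and the match arrays 60.5 to 67.0, with the other 9 arrays between -36.7 and -30.2. The 3′ to 5′ signal ratio of the GAPDH control probe sets was 0.92 to 1.03 with the mismatch polyamide and 0.93 to 1.00 with dexamethasone. That of the actin control was 1.41 to 1.99 with the mismatch polyamide and 1.32 to 1.41 with dexamethasone, and its part in the results was not tested. The 6 epithelial markers were all present, with a summed signal of 21903 to 22386 with the mismatch polyamide and 23636 to 24203 with dexamethasone. Of 7 leukocyte markers, 4 passed the filter on low signals, and the measured ones summed to 105 to 116 with the mismatch polyamide and 72.0 to 86.3 with dexamethasone. Single markers lay on both sides: the integrin ITGAM averaged 51.9 with the mismatch polyamide and 21.4 with dexamethasone, and CD14 averaged 23.6 with the mismatch polyamide and 16.9 with dexamethasone. A further probe set of ITGAM, not part of the sum, averaged 28.4 with the mismatch polyamide and 23.4 with dexamethasone. PTPRC, the defining leukocyte antigen, was under the filter and not tested, at 2.97 with the mismatch polyamide and 7.59 with dexamethasone. Of 6 fibroblast markers, 5 passed, and their sums were 192 to 241 with the mismatch polyamide and 130 to 187 with dexamethasone. The part of these marker levels in the results was not tested.

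A large share of the transcripts differed between the groups. Of 16358 genes, each represented by 1 probe set, 4855 (29.7%) passed the test, 2928 higher (17.9%) and 1927 lower (11.8%) with the mismatch polyamide. A gene was called by limma's moderated test at a Benjamini-Hochberg adjusted p under 0.05 over all probe sets tested. Changes are given as log2(signal + 16), which understates the change of genes with low signals. The falls reached further than the rises: 385 genes (2.35%) were at least 2-fold lower and 208 (1.27%) at least 2-fold higher. The median called rise was 0.52 and the median called fall -0.59, against a median of 0.07 over all genes. Counted over probe sets, 9109 of 39744 (22.9%) changed, 4783 higher (12%) and 4326 lower (10.9%). This count fell to 4624 (2645 higher, 1979 lower) when arrays were scaled by their hybridization spike-ins, and on the signals as deposited 71.7% of the calls were higher, against 52.5% after quantile normalization. In RNA of a whole culture, fewer cells with a transcript and less transcript per cell cannot be told apart.

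**Figure D1:**
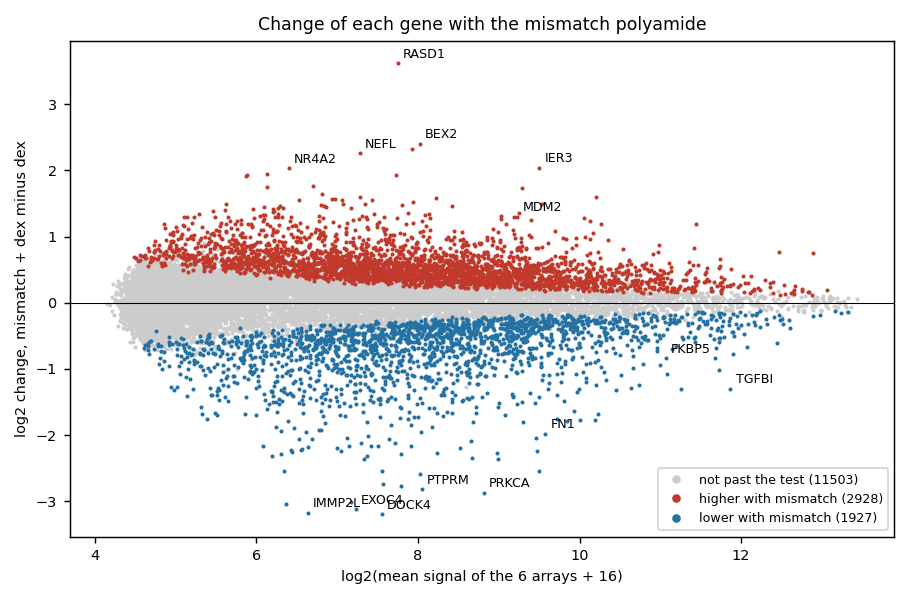
Log2 change of each of 16358 genes, mismatch polyamide plus dexamethasone minus dexamethasone, against the log2 of the mean signal of the 6 arrays plus 16. Red points are the 2928 genes called higher and blue points the 1927 called lower; RASD1 lies highest at 3.62 and DOCK4 lowest at -3.19.

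The genes that led the change are introduced by their promoters, since the series concerns a ligand aimed at a DNA site. Shown are the promoters, from 250 bases before to 50 bases after the transcript start, of the first 3 raised and the first 3 lowered leading genes that could be printed from the RefSeq table of GRCh38.p14. Capitals mark AGAACA or TGTTCT, the 2 strands of the core arm of a glucocorticoid response element, and no other motif was searched.
RASD1: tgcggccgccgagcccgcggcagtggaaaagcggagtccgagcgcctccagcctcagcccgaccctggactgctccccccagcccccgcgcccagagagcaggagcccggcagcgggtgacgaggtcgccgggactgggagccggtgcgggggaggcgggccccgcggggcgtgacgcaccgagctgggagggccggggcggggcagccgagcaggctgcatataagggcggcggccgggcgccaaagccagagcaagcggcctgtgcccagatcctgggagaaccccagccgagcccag
BEX2: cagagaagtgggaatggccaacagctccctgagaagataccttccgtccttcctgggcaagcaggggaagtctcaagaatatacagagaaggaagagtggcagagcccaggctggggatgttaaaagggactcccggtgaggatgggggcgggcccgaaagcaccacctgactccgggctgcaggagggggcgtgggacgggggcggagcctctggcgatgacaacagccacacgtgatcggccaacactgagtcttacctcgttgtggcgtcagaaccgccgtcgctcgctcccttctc
CNNM4: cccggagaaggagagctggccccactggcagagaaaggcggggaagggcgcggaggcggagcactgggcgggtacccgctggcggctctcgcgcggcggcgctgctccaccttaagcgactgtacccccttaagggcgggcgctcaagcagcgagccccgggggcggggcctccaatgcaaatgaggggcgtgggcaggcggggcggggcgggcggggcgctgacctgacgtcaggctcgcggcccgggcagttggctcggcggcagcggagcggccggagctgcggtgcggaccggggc
DOCK4: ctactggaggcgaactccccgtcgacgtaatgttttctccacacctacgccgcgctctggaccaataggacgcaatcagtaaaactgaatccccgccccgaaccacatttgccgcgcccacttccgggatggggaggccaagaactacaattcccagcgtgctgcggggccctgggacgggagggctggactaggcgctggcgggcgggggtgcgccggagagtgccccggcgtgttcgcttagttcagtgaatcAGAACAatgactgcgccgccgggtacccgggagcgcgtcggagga
IMMP2L: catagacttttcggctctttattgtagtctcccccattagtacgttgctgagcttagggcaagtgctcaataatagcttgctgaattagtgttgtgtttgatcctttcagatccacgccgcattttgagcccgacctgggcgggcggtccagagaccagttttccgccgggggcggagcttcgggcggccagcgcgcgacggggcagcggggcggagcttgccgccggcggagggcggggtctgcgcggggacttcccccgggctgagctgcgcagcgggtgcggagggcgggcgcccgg
EXOC4: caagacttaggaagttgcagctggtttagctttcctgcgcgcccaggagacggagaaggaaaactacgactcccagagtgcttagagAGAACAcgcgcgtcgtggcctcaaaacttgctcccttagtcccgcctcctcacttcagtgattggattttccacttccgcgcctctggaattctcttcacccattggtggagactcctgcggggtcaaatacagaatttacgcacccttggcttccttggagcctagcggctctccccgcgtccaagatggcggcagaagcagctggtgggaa
They lie at chr17:17496346-17496645 on the minus strand (RASD1), chrX:103310941-103311240 on the minus strand (BEX2), chr2:96760652-96760951 on the plus strand (CNNM4), chr7:112206350-112206649 on the minus strand (DOCK4), chr7:111562443-111562742 on the minus strand (IMMP2L) and chr7:133252828-133253127 on the plus strand (EXOC4). The letters AGAACA stood in the windows of DOCK4, at position 256 from the 5′ end, and of EXOC4, at position 88, and in neither orientation in the other windows. They stood in 14.9% of all 27305 promoters of the table. A match is a description of the letters only.

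The most raised gene was RASD1, a Ras-related GTPase known as a dexamethasone-inducible gene. It had signals of 384, 375 and 385 with the mismatch polyamide, against 17.3, 22.6 and 10.3 with dexamethasone. Its arrays lay far apart between the groups, at a log2 change of 3.62 (SE 0.21, adjusted p = 1.9e-10). In non-treated cells RASD1 averaged 18.2, so that the level with dexamethasone alone was also near that of cells without hormone.
BEX2, a small X-linked protein of the brain-expressed family, read 414, 446 and 404 with the mismatch polyamide, against 61.6, 69.4 and 68.7 with dexamethasone. It rose by 2.41 (SE 0.11, adjusted p = 3.9e-12). NEFL and PRPH, which encode intermediate filament proteins of neurons, rose with it. NEFL read 248, 225 and 246 with the mismatch polyamide, against 32.1, 32.3 and 49.9 with dexamethasone, a log2 change of 2.26. PRPH read 132, 142 and 158 with the mismatch polyamide, against 23.0, 46.0 and 26.5 with dexamethasone, a log2 change of 1.77.
The early response genes IER3 and NR4A2 formed another group among the leaders, both of them lower with dexamethasone alone than in non-treated cells. IER3 read 1191, 1104 and 1142 with the mismatch polyamide, against 251, 270 and 278 with dexamethasone, and averaged 875 in non-treated cells. NR4A2, an orphan nuclear receptor, read 126, 104 and 130 with the mismatch polyamide, against 18.6, 13.3 and 19.3 with dexamethasone, and averaged 101 in non-treated cells. Each rose by 2.04 (SE 0.07 for IER3 and 0.11 for NR4A2, adjusted p = 2.4e-13 and 1.0e-10).
DUSP6, a phosphatase that switches off the kinase ERK, read 343, 305 and 309 with the mismatch polyamide, against 69.3, 78.0 and 69.4 with dexamethasone, a log2 change of 1.92. The other leaders were the long non-coding transcript WFDC21P (2.33), the transporter-like membrane protein CNNM4 (1.94), the troponin TNNC1 (1.93), the placental growth factor PGF (1.92) and LINC02381 (1.75). CNNM4 and TNNC1 each had 1 dexamethasone array well above the others, at 30.9 and 27.0, though below every mismatch array. A further probe set of PGF did not pass (0.18, adjusted p = 0.24), whereas those of DUSP6 (1.78 and 2.69) and NR4A2 (2.18 and 1.99) were called higher too. The 12 leaders were chosen for their change and for arrays that do not overlap, which held for 26.2% (wholly above) and 16.8% (wholly below) of all genes.

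**Figure D2:**
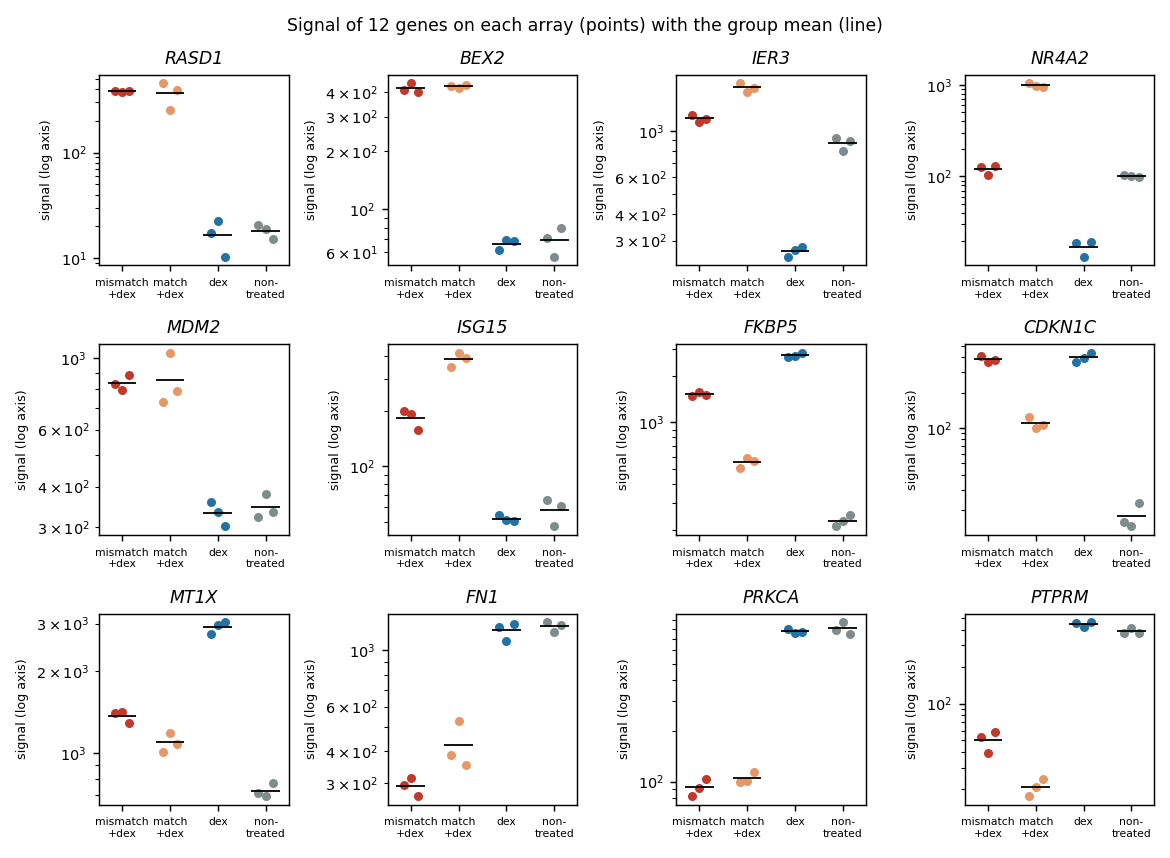
Quantile-normalized signal (log axis) of 12 genes on each of the 3 arrays per group, points, with the group mean as a line; from left, mismatch plus dexamethasone, match plus dexamethasone, dexamethasone, non-treated. RASD1 sits at 375 to 385 with the mismatch polyamide against 10.3 to 22.6 with dexamethasone, and PRKCA at 82.4 to 104 with the mismatch polyamide against 763 to 795 with dexamethasone.

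The most lowered genes were, apart from 1, genes of very long span. PRKCA, which encodes protein kinase C alpha, read 82.4, 91.7 and 104 with the mismatch polyamide, against 795, 763 and 765 with dexamethasone. The groups lay far apart, at a log2 change of -2.87 (SE 0.09, adjusted p = 1.2e-13), and the gene averaged 807 in non-treated cells and 790 with mifepristone. DOCK4, an exchange factor for Rac GTPases, read 24.4, 18.4 and 20.2 with the mismatch polyamide, against 329, 301 and 336 with dexamethasone, a change of -3.19 (SE 0.12, adjusted p = 3.3e-13). PTPRM, a receptor-type tyrosine phosphatase that mediates adhesion between like cells, read 53.2, 39.2 and 58.0 with the mismatch polyamide, against 455, 421 and 461 with dexamethasone, a change of -2.81 (SE 0.11).
IMMP2L, a subunit of the mitochondrial inner membrane peptidase, fell to 3.92, 5.41 and 2.21 with the mismatch polyamide, against 177, 150 and 163 with dexamethasone (-3.17). EXOC4, a subunit of the exocyst, fell by 3.12, the cell-surface proteoglycan GPC6 changed by -3.04 and the methyltransferase SMYD3 by -3.02. The adhesion-site protein LPP (-2.78), the calcium channel subunit CACNA2D1 (-2.73), the scaffold TANC2 (-2.59) and the receptor phosphatase PTPRK (-2.55) completed the long genes, and adjusted p-values of these 7 were at most 6.1e-10. A mean of a few signal units lies at the low end of the arrays, and no detection call was used here. Other probe sets did not all agree: 1 of EXOC4 did not pass at a signal of 25.6 with the mismatch polyamide and 21.3 with dexamethasone, and of the 6 others of LPP 3 fell, 1 of them by 3.09, while 3 did not pass, at changes of -0.34, -0.42 and 0.12.
The exception in length was MALAT1, a nuclear long non-coding RNA. It read 170, 97.2 and 263 with the mismatch polyamide, against 1739, 1566 and 399 with dexamethasone, so that the third dexamethasone array lay much nearer the mismatch arrays than its replicates did. Its change of -2.54 had a wide error (SE 0.58, adjusted p = 0.0028), and 10 of its 11 other probe sets did not pass. Without the third dexamethasone array the change was -3.21. It averaged 336 in non-treated cells.

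Gene span, the distance from the first to the last annotated base including introns, went with the direction of change across the array. A span was found for 16334 of the 16358 genes. All 12 leading raised genes were at most 51.0 kb long and 10 of them under 10 kb, and 11 of the 12 leading lowered genes were over 300 kb, with GPC6 the longest at 1191 kb. Among genes at least 2-fold lower the median span was 283 kb and 303 of 384 (78.9%) were over 100 kb. Among genes at least 2-fold higher the median was 17.7 kb and 8 of 208 (3.85%) were over 100 kb, whereas 17.5% of all genes were.
By bin of span, the share called lower was 4.03% of 4091 genes under 10 kb, 4.87% of 4616 genes of 10 to 30 kb, 11.3% of 4771 genes of 30 to 100 kb, 32.1% of 2240 genes of 100 to 300 kb and 45.0% of 616 genes over 300 kb. The share called higher was 21.8%, 23.7%, 17.3%, 4.96% and 0.97% in the same bins, highest at 10 to 30 kb and lower in each longer bin. The median log2 change was 0.14 under 10 kb and -0.40 over 300 kb. Limited to genes with a mean signal over 100, the shortest bin had 40.7% called higher, and the longest had 134 of 158 called lower (84.8%) with a median of -1.16. Across all genes the rank correlation of span and change was -0.29, a description over genes that share the same 6 arrays.
The pattern was present on each array. For genes over 300 kb, the median difference from the mean of the dexamethasone arrays was -0.42, -0.43 and -0.45 on the mismatch arrays and between -0.02 and 0.02 on the dexamethasone arrays themselves. On the match polyamide arrays it was -0.58, -0.54 and -0.62, so that the fall was not particular to the mismatch polyamide. On the mifepristone arrays, which also had a compound for 48 hours, it was 0.07, 0.04 and -0.01. The count of genes over 300 kb called lower, 277, ran from 233 to 282 over all alternative scalings, filters, fits and left-out arrays. That of genes of 100 to 300 kb, 719, dropped to 314 on the signals as deposited and to 373 with spike-in scaling. Of the 616 genes over 300 kb, 277 were called lower, and most of the others did not pass. In this bin 6 were called higher, chosen here after their values were seen, and the one with the highest signal was ATP9B, a phospholipid flippase of 309 kb, with a mean of 553 with the mismatch polyamide, against 395 with dexamethasone (0.47). PARD3, a polarity protein also chosen after its values were seen, did not pass (0.25, adjusted p = 0.15) and read 488 on average with the mismatch polyamide, against 410 with dexamethasone. The list of 39 tested genes of very long span, drawn up with this pattern known, had 32 lower and 0 higher. It holds receptors and adhesion genes beside others such as PRKCA, SMYD3, IMMP2L and EXOC4.

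**Figure D3:**
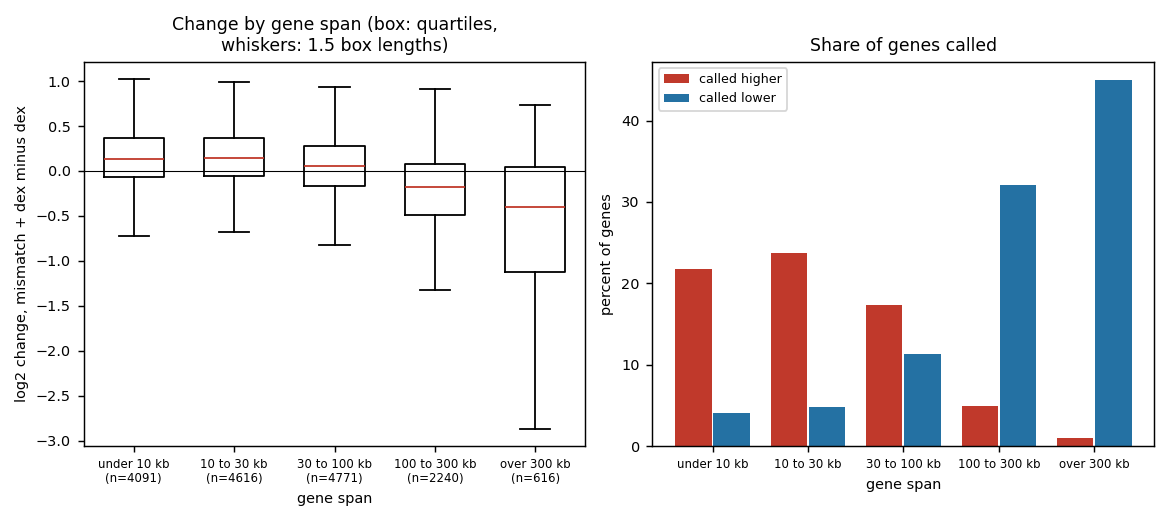
Left, log2 change with the mismatch polyamide by bin of gene span (red line: median, box: quartiles, whiskers: up to 1.5 box lengths, points beyond not drawn). Right, percent of genes in each bin called higher (red) and lower (blue); the share called lower goes from 4.03% under 10 kb to 45.0% over 300 kb.

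The targets of the glucocorticoid receptor moved in part. Of 40 tested genes on a list of glucocorticoid-induced genes, 17 were lower, 7 were higher and 16 did not pass, with a median of -0.20. List counts against dexamethasone, here and below, are read beside the 17.9% of all genes called higher and the 11.8% called lower. FKBP5, a co-chaperone that restrains the receptor and a classical target of it, read 1480, 1573 and 1504 with the mismatch polyamide, against 2659, 2711 and 2828 with dexamethasone. It fell by 0.84 (SE 0.07, adjusted p = 2.9e-08), and stood well above its non-treated mean of 231. CIDEC, a lipid-droplet protein, read 166, 133 and 147 with the mismatch polyamide, against 450, 543 and 520 with dexamethasone, and fell by 1.66 (SE 0.13, adjusted p = 6.8e-09). The transcription factor FOXO3 (-0.88) and the growth factor binding protein IGFBP1 (-0.78) were lower as well. FKBP5 spans 155 kb and FOXO3 125 kb, in the bin where 32.1% of all genes were called lower. CIDEC spans 13.5 kb and IGFBP1 5.17 kb, in bins where 4.87% and 4.03% were. The part of span in these falls was not tested.
CDKN1C, a cyclin-dependent kinase inhibitor gene of 2.56 kb, did not pass. It read 412, 362 and 377 with the mismatch polyamide, against 362, 397 and 436 with dexamethasone, overlapping ranges with a difference of -0.05 (95% interval -0.31 to 0.21), while its non-treated mean was 17.9. The leucine zipper protein TSC22D3 fell by 0.39 (SE 0.09, adjusted p = 0.0043) and the phosphatase DUSP1 by 0.22 (SE 0.05, adjusted p = 0.0019). The kinase SGK1 fell by 0.41 (SE 0.10, adjusted p = 0.0041) and the lipase inhibitor ANGPTL4 by 0.48 (SE 0.16, adjusted p = 0.034). Their spans are 62.8 kb for TSC22D3, 3.10 kb for DUSP1, 149 kb for SGK1 and 10.2 kb for ANGPTL4. The calls of these 4 genes were lost on the signals as deposited and with spike-in scaling, where the list had 8 members lower under each. The DUSP1 call was also lost with median scaling and with no variance trend. Other probe sets of DUSP1 (-0.46 and 0.20) and of TSC22D3 (-0.41 and -0.05) did not pass. The ANGPTL4 call was lost under 9 of 17 alternatives, among them leaving out the first or the third mismatch array or the first or the third dexamethasone array. A further, dimmer probe set of ANGPTL4 changed by -0.93 (limma adjusted p = 0.00015), and the alternatives were not run for it. KLF9, a transcription factor, did not pass (0.18, 95% interval -0.21 to 0.57).
The receptor itself, NR3C1, of 158 kb, read 857, 836 and 907 with the mismatch polyamide, against 1137, 935 and 1068 with dexamethasone. Its change was -0.26 (SE 0.08, adjusted p = 0.015). Of its 4 other probe sets 1 was lower and 3 did not pass, and the call was lost under 7 of the 17 alternatives, among them leaving out the second mismatch array or the first or the third dexamethasone array. Among 18 tested receptors and co-regulators 6 were lower and 3 higher, with a median of -0.04, and 3 were lower on the signals as deposited. The coactivators NCOA2, of 347 kb, and NCOA1 were among the lower ones (-1.04 and -0.88), and the deacetylase HDAC2 was higher (0.44).

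Inflammatory genes on a list of those that glucocorticoids repress split in both directions. Of 25 tested, 7 were higher, 5 lower and 13 did not pass, with a median of 0.12, and the 5 lower calls were lost on the signals as deposited and with spike-in scaling. Beside IER3 and NR4A2, PTGS2, the inducible cyclooxygenase, read 497, 411 and 539 with the mismatch polyamide, against 233, 230 and 259 with dexamethasone, a rise of 0.95 (SE 0.10, adjusted p = 8.3e-07). The chemokine CCL2 fell by 0.70 (SE 0.18, adjusted p = 0.0065), at 12.3, 13.8 and 25.2 with the mismatch polyamide, against 30.8, 40.2 and 41.2 with dexamethasone. The neutrophil chemokine CXCL8 was at 2.58 to 3.93 with the mismatch polyamide and 2.22 to 10.8 with dexamethasone and did not pass. PTGES, the synthase that acts after PTGS2 in prostaglandin E synthesis, fell by 0.43, and its call, like that of CCL2, was among those lost.
Of 29 tested immediate early genes, which respond to signals without new protein synthesis, 13 were higher and 8 lower, with a median of 0.11. MAFF, a small Maf factor, read 337, 353 and 352 with the mismatch polyamide, against 114, 110 and 107 with dexamethasone, and rose by 1.52 (SE 0.09, adjusted p = 2.2e-10). A dimmer probe set of MAFF did not pass (0.51, limma adjusted p = 0.096). The count of lower members ran down to 1 on the signals as deposited, to 2 with spike-in scaling, to 4 without the first dexamethasone array, and to 5 without the third mismatch array.

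Metallothioneins are small proteins that bind zinc and copper and that both metals and glucocorticoids induce. Of 9 tested genes of this list 5 were lower, 1 higher and 3 not past the test, with a median of -1.02, and 5 were lower under every alternative. MT1X read 1401, 1414 and 1295 with the mismatch polyamide, against 2752, 2959 and 3035 with dexamethasone, a change of -1.08 (SE 0.08, adjusted p = 2.2e-09). MT2A read 2207, 2546 and 1902 with the mismatch polyamide, against 4653, 4489 and 4344 with dexamethasone (-1.02). MT1H changed by -1.31. Their non-treated means were 726 for MT1X, 1454 for MT2A and 285 for MT1H. Metallothioneins resemble each other closely in sequence, so that probe sets may take signal from several of them. The 1 riser was SLC30A1, which exports zinc from the cell, at 0.96 (SE 0.12, adjusted p = 5.6e-06).

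Targets of p53, the transcription factor that answers DNA damage and other stress, were the list with the largest share of higher members among the 28 lists. Of 32 tested, 25 were higher, 0 lower and 7 did not pass, with a median of 0.57. MDM2, the ubiquitin ligase that degrades p53, read 829, 799 and 888 with the mismatch polyamide, against 358, 334 and 301 with dexamethasone, and rose by 1.30 (SE 0.11, adjusted p = 2.2e-08). Of the 8 other tested probe sets of MDM2, 3 were called higher and 5 did not pass. PPM1D, the phosphatase that ends p53 signalling, read 725, 721 and 729 with the mismatch polyamide, against 283, 296 and 293 with dexamethasone (1.27). CDKN1A, the p21 cell cycle inhibitor, read 1068, 1063 and 967 with the mismatch polyamide, against 647, 699 and 678 with dexamethasone (0.60, SE 0.08, adjusted p = 9.1e-06). The death receptor TNFRSF10B (0.87) and cyclin G1, CCNG1 (0.61), rose too. No array of the mismatch group overlapped with one of the dexamethasone group in these 5 genes.
Of 32 tested mitosis genes, 10 were higher, 1 lower and 21 not past the test (median 0.12); the spindle checkpoint gene MAD2L1 rose by 0.51 and cyclin B2, CCNB2, by 0.53 (a dimmer probe set of CCNB2 fell by 0.49), while NUSAP1, a spindle protein, fell by 0.64. Of 32 tested replication genes, 14 were higher and 2 lower (median 0.21); the licensing factor CDC6 rose by 0.52, and the DNA polymerase alpha subunit POLA1, of 303 kb, fell by 1.07. With spike-in scaling 6 replication genes were higher. The lower replication members numbered 1 without the third mismatch or the first dexamethasone array. Of 29 tested damage and repair genes, 6 were higher and 6 lower (median 0.03). The mismatch repair gene MSH6 (0.47), the kinase CHEK2 (0.83) and the damage sensor XPC (0.70) rose, and PRKDC, the DNA-dependent protein kinase, fell by 0.67. The lower repair members numbered 1 on the signals as deposited, where the PRKDC call was lost, and 3 with spike-in scaling.

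ATF4 is a transcription factor that raises genes of amino acid supply under stress, and chaperones of the endoplasmic reticulum (ER) fold secreted proteins. Of 30 tested ATF4 and amino acid response genes, 18 were higher, 3 lower and 9 not past the test, with a median of 0.40. ASNS, asparagine synthetase, read 1496, 1614 and 1507 with the mismatch polyamide, against 746, 742 and 708 with dexamethasone, and rose by 1.06 (SE 0.06, adjusted p = 7.0e-11). The folate enzyme MTHFD2 rose by 0.82 and the mitochondrial PCK2 by 1.15. SLC7A5, the large neutral amino acid transporter, went down, at 2331, 2318 and 2340 with the mismatch polyamide, against 4302, 4053 and 4128 with dexamethasone (-0.83, SE 0.06, adjusted p = 2.5e-09).
Of 21 tested ER chaperones and unfolded protein response genes, 12 were lower, 1 higher and 8 not past the test, with a median of -0.32. HSPA5, the main chaperone of the ER, read 3597, 3334 and 3416 with the mismatch polyamide, against 4312, 4418 and 4705 with dexamethasone (-0.38, SE 0.05, adjusted p = 8.2e-06). SEL1L, of the degradation machinery, fell by 0.73 and the disulfide isomerase PDIA4 by 0.69. The riser, named here after its value was seen, was the transcription factor XBP1 (0.54). With the signals as deposited, and likewise with spike-in scaling, 4 members were lower, and HSPA5 and HERPUD1 were not called.

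Interferon-response genes are those that cells use against viruses. Of 26 tested, 14 were higher and 1 lower, 11 did not pass, and the median of 0.61 was the highest of the 28 lists. ISG15, a ubiquitin-like protein, read 201, 193 and 158 with the mismatch polyamide, against 54.0, 51.3 and 50.2 with dexamethasone, and rose by 1.55 (SE 0.16, adjusted p = 3.4e-07). OAS1, which senses double-stranded RNA, read 749, 673 and 808 with the mismatch polyamide, against 312, 328 and 304 with dexamethasone (1.20). IFIT3 changed by 1.49 and IFI35 by 1.18. Their means in non-treated cells were 57.9 for ISG15, 428 for OAS1, 69.1 for IFIT3 and 127 for IFI35. Of the leukocyte markers on the wider list of 10 tested genes, 2 were higher, 0 lower and 8 not past the test, near the 17.9% of all genes called higher.

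TGF-beta is a growth factor that raises genes of the extracellular matrix. Of 28 tested genes of its response and of the matrix, 18 were lower and 3 higher, 7 did not pass, the median was -0.59, and 10 were lower on the signals as deposited. FN1, fibronectin, read 294, 315 and 267 with the mismatch polyamide, against 1236, 1089 and 1271 with dexamethasone, and fell by 1.98 (SE 0.12, adjusted p = 1.8e-10). TGFBI, a secreted adhesion protein induced by TGF-beta, read 2243, 2149 and 2030 with the mismatch polyamide, against 4894, 5403 and 5576 with dexamethasone (-1.30, SE 0.05, adjusted p = 2.0e-12). The basement membrane collagen COL4A2 fell by 1.66 and LTBP1, which binds latent TGF-beta, by 1.60. These genes differ in span: TGFBI covers 34.8 kb, FN1 75.2 kb, COL4A2 206 kb and LTBP1 453 kb. The 3 risers were LAMB3 (0.94), TGFBR1 (0.33) and COL1A1 (0.47), the last a call that spike-in scaling ended, chosen here after their values were seen. Of 10 tested fibroblast markers 2 were higher, 0 lower and 8 not past the test, near the 17.9% of all genes called higher.
Of 27 tested epithelial and lung genes, 10 were higher and 3 lower (median 0.26), against 17.9% and 11.8% of all genes. EPCAM, an epithelial adhesion molecule, read 481, 456 and 522 with the mismatch polyamide, against 165, 183 and 152 with dexamethasone, and rose by 1.46 (SE 0.11, adjusted p = 5.7e-09). CDH1, the epithelial cadherin, went the other way, at 145, 185 and 154 with the mismatch polyamide, against 398, 344 and 403 with dexamethasone (-1.17, SE 0.10, adjusted p = 2.6e-08). The trefoil peptide TFF1 rose by 1.44 and the keratin KRT19 by 0.59.

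Metabolic lists were mixed, and some counts lay near the shares over all genes, 17.9% higher and 11.8% lower. Of 22 tested cholesterol and fatty acid synthesis genes, 10 were higher and 2 lower (median 0.21), led by the sterol regulator SREBF1, at 630, 631 and 685 with the mismatch polyamide, against 269, 264 and 343 with dexamethasone (1.12, SE 0.12, adjusted p = 7.5e-07). INSIG1, which holds sterol regulators in the ER, rose by 0.63. Of 25 tested targets of NRF2, the antioxidant factor that is constitutively active in A549 cells, 9 were higher and 8 lower (median -0.03). The glutathione peroxidase GPX2 rose by 0.76 and the malic enzyme ME1, of 221 kb, fell by 0.52, a call not made with the signals as deposited or with spike-in scaling. Of 32 tested hypoxia and glycolysis genes, 11 were higher and 7 lower (median 0.12); ENO2 rose by 0.93 and the angiogenic factor VEGFA by 0.69. Of 21 tested drug metabolism genes, 4 were higher and 6 lower (median -0.03), with the drug efflux pump ABCC1, of 194 kb, lower by -0.82. The lower counts of the NRF2, hypoxia and drug metabolism lists were 1, 0 and 1 on the signals as deposited. That of the hypoxia list was 4 without the second mismatch or the third dexamethasone array.
Of 36 tested genes of the RNA polymerase II machinery, 13 were higher and 3 lower (median 0.20), and CDK7, the kinase of its initiation complex, rose by 0.63. Of 28 tested ribosome biogenesis genes, 15 were higher and 2 lower (median 0.26). POLR1D, a subunit shared by RNA polymerases I and III, read 2540, 2535 and 2750 with the mismatch polyamide, against 1431, 1422 and 1391 with dexamethasone (0.87, SE 0.05, adjusted p = 1.2e-10). Both other probe sets of POLR1D, with lower signals, lay on the other side, 1 called lower (-0.60, adjusted p = 0.00020) and 1 not past the test (-0.48). Spike-in scaling left 4 and 8 members higher in these lists, and without the first mismatch array 8 of the polymerase II list were higher. Of 38 tested ribosomal protein genes, 6 were higher and 0 lower, and 32 did not pass (median 0.05, against 0.07 over all genes). The share of ribosomal protein genes called higher was near the 17.9% of all genes. Of these genes, 1 was higher with spike-in scaling and 3 without the third dexamethasone array.
Of 32 tested subunits of oxidative phosphorylation, 3 were higher, 3 lower and 26 not past the test (median -0.02), and the lower count ran from 0 to 7 over the alternatives, with 1 without the third mismatch array. Of 17 tested histone genes, 1 was higher and 2 were lower (median -0.03). The higher call, H2AZ1 (0.12), was lost under 9 of 17 alternatives. Both lower calls were lost on the signals as deposited and with spike-in scaling. Of 18 tested heat shock genes, 5 were higher and 5 lower (median 0.11), with the co-chaperones DNAJB4 at 0.89 and DNAJB6 at -1.28. Of 19 tested clock genes, 4 were higher and 6 lower (median 0.01). The lower count was 1 on the signals as deposited and with spike-in scaling, 3 without the second mismatch or the third dexamethasone array, and 2 without the third mismatch or the second dexamethasone array, and 2 were higher without the first mismatch array. NR1D2, a repressor in the clock, read 61.6, 71.6 and 63.2 with the mismatch polyamide, against 269, 199 and 195 with dexamethasone (-1.53, SE 0.19, adjusted p = 4.7e-06).

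**Figure D4:**
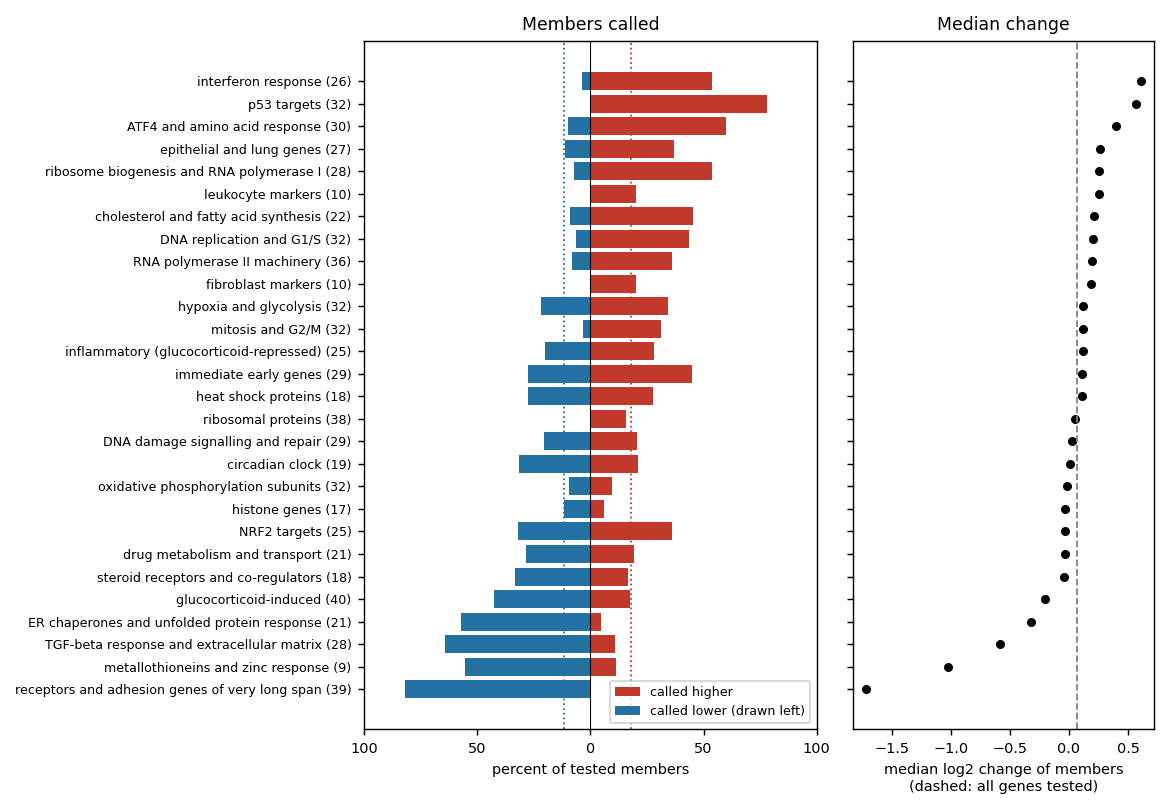
Left, percent of tested members of each of 28 gene lists (number tested in brackets) called higher (red, to the right) and lower (blue, to the left) with the mismatch polyamide against dexamethasone, with the same shares over all genes as dotted lines (17.9% and 11.8%). Right, the median log2 change of each list, from -1.71 for the very long genes to 0.61 for the interferon response, with the median of all genes dashed.

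The mismatch polyamide was then set directly against its match analog, the only pair of related compounds in the series, both for 48 hours with dexamethasone. Whether their doses were alike is not stated. Of 16358 genes, 3746 (22.9%) differed, 2204 higher (13.5%) and 1542 lower (9.43%) with the mismatch polyamide. Over probe sets 6697 (16.9%) differed, 3728 higher (9.38%) and 2969 lower (7.47%). Mismatch arrays lay wholly above the match arrays in 20.4% of genes and wholly below in 16.1%. The split of higher and lower calls moved with the scaling: 55.7% were higher after quantile normalization, 82.0% on the signals as deposited, 80.4% with arrays divided by their medians and 25% with spike-in scaling.
The glucocorticoid-induced list showed members higher with the mismatch polyamide, 18 of 40, against 4 lower. FKBP5 read 1480, 1573 and 1504 with the mismatch polyamide, against 509, 586 and 566 with the match polyamide, a difference of 1.43 (95% interval 1.28 to 1.58, adjusted p = 8.7e-11). CDKN1C read 412, 362 and 377 with the mismatch polyamide, against 125, 101 and 105 with the match polyamide (1.66, 1.40 to 1.92, adjusted p = 1.6e-08). DNAJC15, a mitochondrial co-chaperone, had the largest positive difference among called genes with separate arrays, at 73.6, 75.3 and 69.3 with the mismatch polyamide, against 0.84, 1.71 and 4.21 with the match polyamide (2.29, adjusted p = 1.9e-07). These match signals lie at the low end of the arrays. Other, dimmer probe sets of DNAJC15 did not pass (0.29 and -0.18). NR3C1 was higher with the mismatch polyamide by 0.48 (0.32 to 0.64), except with spike-in scaling, where the call was lost. DUSP1 did not pass (-0.00, -0.10 to 0.09), nor did ANGPTL4 (0.14, -0.19 to 0.47). SGK1 went the other way, with -0.67 (-0.87 to -0.46), a call lost on the signals as deposited.
Other genes higher with the mismatch than with the match polyamide were CNTN1, a neuronal adhesion molecule (2.01, 1.79 to 2.24), and the cadherin CDH16 (1.94). TNNC1 (1.94), the Wnt antagonist DKK3 (1.91) and the secreted protease HTRA1 (1.90) were higher too. Against dexamethasone, CNTN1 (-1.49), DKK3 (-0.51), HTRA1 (-0.61) and DNAJC15 (-1.32) were lower with the mismatch polyamide. In that comparison CDH16 did not pass (0.56) and TNNC1 was higher (1.93). A dimmer probe set of CNTN1 did not differ from match (-0.01), while others did (1.21 and 1.83). Genes lower with the mismatch than with the match polyamide were led by NR4A2, at 126, 104 and 130 with the mismatch polyamide, against 1040, 981 and 934 with the match polyamide (-2.88, -3.12 to -2.65, adjusted p = 1.0e-11). The chemokine CCL20 read 2.57, 12.4 and 12.8 with the mismatch polyamide, against 185, 128 and 129 with the match polyamide (-2.70). CARD8-AS1 (-2.00), the gastrokine GKN2 (-1.76), the chemokine CXCL2 (-1.72) and the RNA helicase DDX10 (-1.69) followed.
By list, immediate early genes (0 higher, 21 lower of 29), ATF4 and amino acid response genes (0 higher, 23 lower of 30), inflammatory genes (0 higher, 11 lower of 25) and ribosome biogenesis genes (0 higher, 13 lower of 28) had lower members only. List counts and span shares against the match polyamide were not repeated under other scalings, which moved the split of all calls in this comparison. ASNS was lower by -0.86 (-0.98 to -0.74, adjusted p = 3.3e-09) and ISG15 was lower too (-1.33 to -0.68, adjusted p = 0.00012). ISG15 did not stand for the whole interferon list, where 18 of 26 genes showed no called difference from the match polyamide. The calls in that list were 5 lower and 3 higher, and its median was -0.02. OAS1 was lower (-0.69), whereas IFIT3 (-0.01) and IFI35 (-0.19) did not pass. Of p53 targets 3 were higher and 8 lower of 32, with MDM2 not past the test (-0.01, -0.23 to 0.21) and CDKN1A higher by 0.26 (0.10 to 0.43), a call lost under 8 of 17 alternatives. For several leaders no difference passed, among them RASD1 (0.10, -0.34 to 0.55), BEX2 (-0.03, -0.25 to 0.19), NEFL (-0.04, -0.31 to 0.24), DOCK4 (0.09, -0.16 to 0.33) and PRKCA (-0.15, -0.35 to 0.04). These intervals still allow differences of up to 0.55.
Among genes over 300 kb, 22.2% were higher and 3.08% lower with the mismatch than with the match polyamide. Of the 39 tested genes on the list of very long span 17 were higher and 0 lower. PTPRM read 53.2, 39.2 and 58.0 with the mismatch polyamide, against 17.6 to 24.1 with the match polyamide (0.83, 0.60 to 1.07, adjusted p = 2.6e-05), both far under its dexamethasone level. SMYD3 differed by 0.73 (0.41 to 1.05) and PTPRK by 0.87 (0.64 to 1.09); the SMYD3 call was lost with spike-in scaling, with a pseudocount of 64 and with only the 6 arrays compared.

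**Figure D5:**
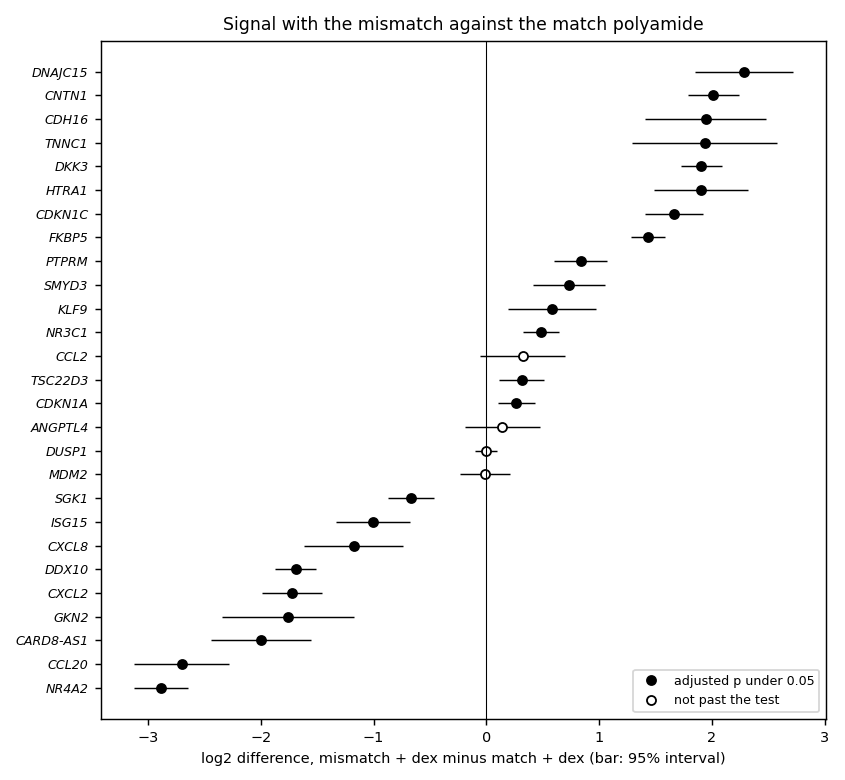
Log2 difference, mismatch polyamide plus dexamethasone minus match polyamide plus dexamethasone, of the fixed genes and the 12 genes with the largest differences (point: estimate, bar: 95% interval, filled: adjusted p under 0.05). NR4A2 lies lowest at -2.88 and DNAJC15 highest at 2.29, with MDM2 and DUSP1 at 0.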

How the data were processed

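Each deposited value was a linear intensity for a probe set on an array. The submitters' processing notes name MAS5, without version or scaling target. There were 54675 probe sets, 62 of them controls, and 41097 carried 1 gene symbol. Arrays were quantile normalized, 16 was added and log2 was taken. Probe sets above the 40th percentile of their array on at least 3 of the 15 arrays were kept (39744). limma 3.58.1 in R 4.3.3 fitted 1 coefficient per group over all 15 arrays, with a variance trend, and p-values were adjusted by Benjamini and Hochberg. The fit was tested on simulated data. The number of arrays limits the precision. No arrays were identical. Figures and lists were made in Python 3.11.15.

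Each gene was represented by its brightest probe set with that symbol alone, those ending in _x_at last. Of 8135 genes with several tested probe sets, 105 were called in both directions. The text names the 12 most raised and 12 most lowered genes with separate arrays, 16 fixed genes, up to 4 members per list with the smallest adjusted p, and the 6 largest differences from the match polyamide in each direction. The members and lists were chosen with earlier results of these data known, so counts and medians are given without set tests. Spans came from RefSeq for GRCh38.p14. Promoters were found for 79.0% of genes, under the 80% needed, so a check of promoter composition is void. Alternatives were the array scaling, pseudocount, filter, variance trend, arrays fitted, replicate number as a block, and each array left out.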

Additional observations from a re-analysis of the deposited data

How the results depend on the processing

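The 9109 probe sets that changed against dexamethasone became 4624 with spike-in scaling, and ran from 7514 to 8078 with 1 array left out. The 6697 that differed from the match polyamide became 3094 (2538 higher, 556 lower) on the signals as deposited and 2847 (712 higher, 2135 lower) with spike-in scaling, and ran from 5372 to 5869 with 1 array left out. The median over probe sets moved from 0.02 to 0.14 on the signals as deposited in the first comparison and from -0.01 to -0.16 with spike-in scaling in the second; the cause was not tested. Every other scaling, pseudocount, filter or fit kept both counts within 1.5 times. The labels number the replicates alike in each group, but same-numbered mismatch and dexamethasone arrays did not deviate together (r = -0.04, -0.08 and -0.08), and mismatch and match arrays did so at 0.00, 0.12 and -0.05. With the replicate number as a block the counts were 9110 and 6712. Of 184 gene values, 142 kept their side of the threshold under every alternative; over 3121 repeats, 123 calls were lost, 2 were gained and 0 called values changed direction. Among values that did not pass, the sign changed for some, such as CDKN1C against dexamethasone (-0.11 to 0.14) and BEX2 against the match polyamide (-0.18 to 0.13). Of 952 repeats of list counts, all of them against dexamethasone, 99 moved by over 1.5 times. Low signals limit precision, since no detection calls were used. The repeats for the comparison with the match polyamide by gene, and for gene span, were chosen after seeing the data.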

Other observations

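Gene families, chosen after their values were seen, are given as counts, to be read beside the 17.9% of all genes called higher and the 11.8% called lower. Of 410 tested zinc finger genes named ZNF, 94 were higher and 16 lower with the mismatch polyamide against dexamethasone, with a median of 0.18. Of 8 DOCK exchange factors, which activate Rac and related GTPases, 6 were lower and 0 higher, with a median of -0.98 and a median span of 266 kb. Of 15 receptor-type tyrosine phosphatases, 4 were lower and 1 higher, the riser being PTPRH with a mean of 55.3 with the mismatch polyamide, against 10.9 with dexamethasone. Of 8 protein kinase C genes, 4 were lower and 1 higher. Of 35 kinesins, the motors of microtubules, 12 were higher and 4 lower.

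Of the 4 neurofilament and related genes tested, 3 were higher. INA, alpha-internexin, averaged 948 with the mismatch polyamide, against 274 with dexamethasone (1.73, limma adjusted p = 6.9e-12), beside NEFL and PRPH. Of 5 BEX genes 2 were higher, BEX2 and BEX4 (0.83). Of 33 proteasome subunits, 11 were higher and 3 lower, led by PSMB9 (1.04) and PSMB8 (0.80), the subunits of the immunoproteasome that interferons induce. Of 17 aminoacyl-tRNA synthetases, 5 were higher and 4 lower against dexamethasone. With the mismatch against the match polyamide 2 were higher and 12 lower, where 13.5% of all genes were higher and 9.43% lower. Of 513 antisense transcripts 31 were higher and 6 lower, and of 447 intergenic long non-coding transcripts 22 were higher and 11 lower.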
